A study of Mus musculus with 9 samples.

Results

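The 31 genes described here encode subunits of the mitochondrial oxidative phosphorylation system: 11 listed under complex I, 2 of complex II, 5 of complex III, 6 of complex IV, 6 of complex V and cytochrome c. They were chosen by symbol, as the rows of the deposited expression table whose gene name equals a listed subunit, and all 31 were found among the 23799 genes of the table. In sorted mouse tumour cells, 26 of the 31 had a higher mean in lung metastases than in primary tumours of the breast cancer model, though no gene passed the test there. All 6 listed complex IV members were higher in both metastases than in both primary tumours, as were 15.8% of all genes tested. Of the pancreatic model, liver metastasis 1 lay above the mean of the primary tumours for 25 of the 31 members and liver metastasis 5 below it for 26. In the single pancreatic lung metastasis 4 members (Cyc1, Ndufa10, Ndufv1 and Ndufs1) were under 1 RPKM (reads scaled by gene length and by library size). These were 12.9% of the members, beside 12.8% of all genes with at least 10 RPKM in 6 other libraries. Of these Cyc1, Ndufa10 and Ndufv1 passed the test, and their calls were lost under several other fits, the block by animal among them.

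Oxidative phosphorylation takes place in the inner mitochondrial membrane. Complex I takes electrons from NADH and complex II from succinate, both pass them to ubiquinone, complex III hands them to the small carrier cytochrome c, and complex IV gives them to oxygen. Complexes I, III and IV pump protons while doing so, and complex V, the ATP synthase, uses the returning protons to make ATP. Complex II is also succinate dehydrogenase, an enzyme of the TCA cycle, and all its subunits are nuclear genes. The other complexes are built from nuclear and mitochondrial genes, and tumour cells differ in how far they rely on respiration or on glycolysis for ATP. Of the mitochondrially encoded subunits, 13 were listed and none was matched in the table, so they are not analysed here.

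RNA sequencing covered 9 libraries of fluorescently sorted tumour cells from orthotopic mouse models. The breast cancer model (BC) used cells labelled 4T1-eGFP derived, from the 4T1 mammary carcinoma line, sorted for GFP at 28 days: primary tumours 1 and 5, and lung metastases 4 and 6. The pancreatic ductal adenocarcinoma model (PDAC) was sorted for YFP: primary tumours 1 and 5, liver metastases 1 and 5, and lung metastasis 1. All PDAC libraries share the alleles p48-Cre, p53F/+, KrasL/+ and ROSA-LSL-YFP, where p48 is a pancreatic driver of the recombinase. Those numbered 1 (25.67 weeks) also carry SIRT6F/F, and those numbered 5 (28.95 weeks) do not. Genotype, age and number cannot be told apart in this model. All BC libraries descend from 1 cell line. The labels do not say whether the BC numbers are separate animals, and the p-values cover only the spread among libraries as deposited.

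The libraries differed in ways the groups do not explain. The estimated reads on genes ranged from 21.3 to 127.9 M, and the genes above 0 from 9530 (PDAC lung metastasis 1) through 10410 (PDAC primary 5) and 10938 (BC lung metastasis 6) to 20478 (BC primary 5). Haemoglobin genes took 38.9%, 20.05% and 38.6% of the summed expression in PDAC liver metastases 1 and 5 and lung metastasis 1, 10.9% in PDAC primary 1, and at most 0.107% in the other 5 libraries. The tumour epithelium list (Epcam, Cdh1, Cldn4 and 4 keratins) summed to between 2220 and 15898 in 7 libraries, but to 239 in PDAC liver metastasis 5 and 132 in PDAC lung metastasis 1, and Cdh1 was at 0 in the latter and in BC lung metastasis 6. Neutrophil markers summed to 190764 in PDAC liver metastasis 5 and 8727 in liver metastasis 1, to 2365 and 1471 in BC lung metastases 4 and 6, and to 27.1 and 26.7 in the BC primary tumours. Lung epithelium markers summed to 35869 in PDAC lung metastasis 1, and hepatocyte markers to 923 and 2296 in the liver metastases. Sirt6 was listed at 3.49, 2.91 and 0 in PDAC primary 1, liver metastasis 1 and lung metastasis 1, which carry the SIRT6F/F label, and at 0 and 2.23 in primary 5 and liver metastasis 5, which do not. A value for the whole gene also counts exons outside a deleted part, so it does not check that label.

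Expression is given in RPKM, which scales by gene length, but levels can be compared between genes only approximately. The authors' gene lengths are not used here. The joined length of all exons differs unevenly from that of the transcript, at 4995 and 1079 bases for Ndufb5 but 419 for both in Ndufa1. Over the 9 libraries the median member lay between 81.3 RPKM (BC primary 5) and 238 RPKM (BC lung metastasis 6), 26 of the 31 genes had 10 RPKM or more in all 9, and 6 of the 279 values, in the other 5 genes, were under 1 RPKM. The highest level belonged to Cox4i1, the ubiquitous isoform of complex IV subunit 4, in all 5 PDAC libraries. Its 9 values were 812 and 519 RPKM in BC primary 1 and 5, 817 and 1349 in BC lung metastasis 4 and 6, 993 and 1455 in PDAC primary 1 and 5, 2225 and 975 in PDAC liver metastasis 1 and 5, and 709 in PDAC lung metastasis 1. In all 4 BC libraries the highest level was that of Ndufb9, an accessory complex I subunit, at 839, 694, 1153 and 2365 RPKM in the same order. Ndufb9 stood at 374 and 364 RPKM in the PDAC primary tumours, 758 and 375 in the liver metastases and 532 in the lung metastasis. At the low end were Cycs, the somatic cytochrome c (11.0 to 46.7 RPKM), Atp5g1, 1 of the genes for the membrane ring subunit c of complex V (13.1 to 96.8 RPKM), and Ndufs1, the largest iron-sulfur subunit of complex I (0.0508 to 23.7 RPKM). Cycs has processed pseudogenes, and how reads that fit several places were treated is not given in the sources used here. Together the 31 genes made up from 0.518% (PDAC liver metastasis 5) to 2.62% (BC lung metastasis 6) of the summed expression.

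**Figure D1:**
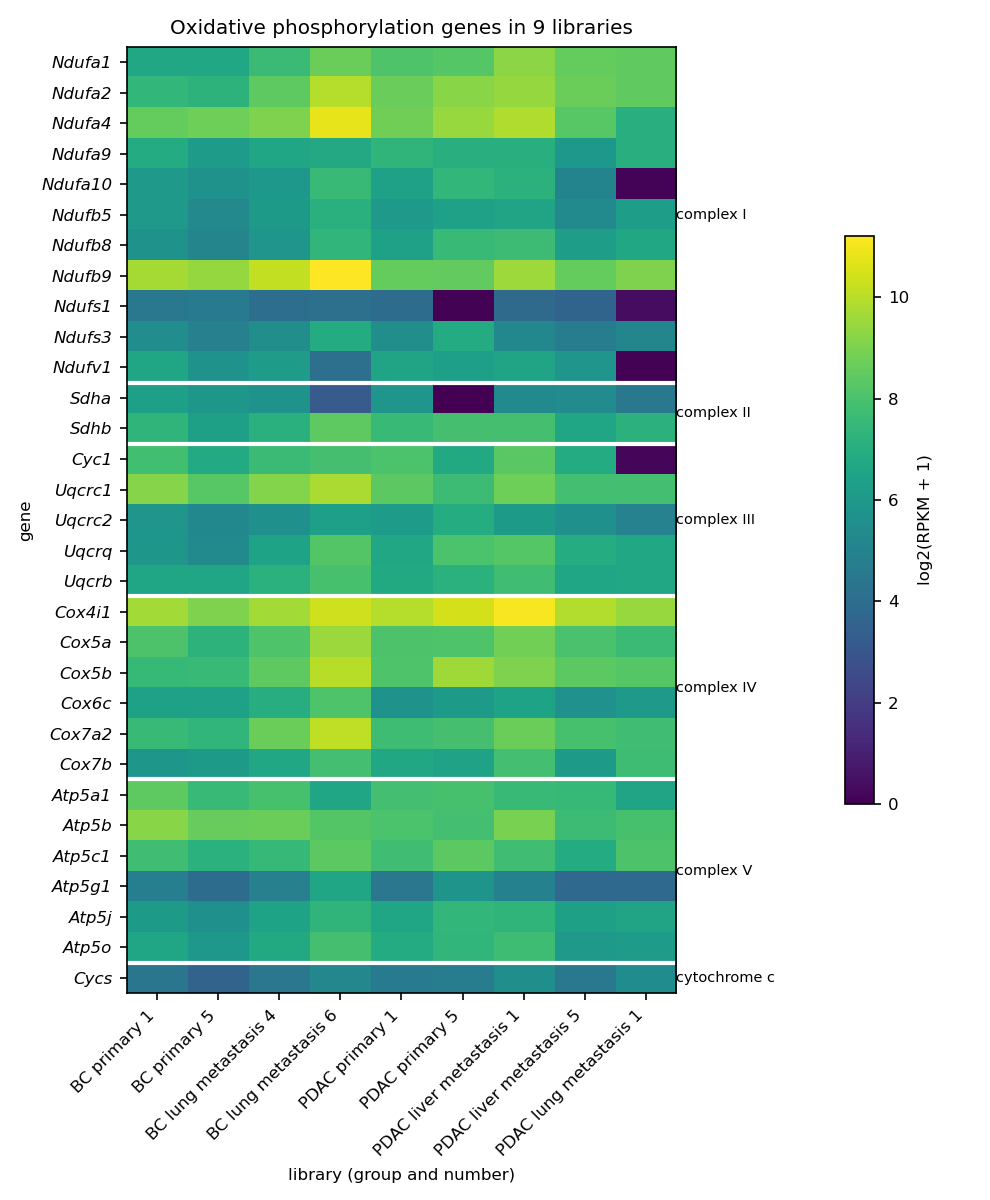
Heat map of log2(RPKM + 1) for the 31 genes (rows, by complex) in the 9 libraries (columns). The 6 values under 1 RPKM, all in PDAC primary 5 and PDAC lung metastasis 1, appear as the darkest cells, and BC lung metastasis 6 and PDAC liver metastasis 1 hold many of the brightest.

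The promoters of 21 of the 31 genes were found in RefSeq sequences of build GRCm38.p6, as 23 windows of 300 bases (250 before to 50 after the start). Genes of this system are textbook targets of the nuclear respiratory factors, so the windows were searched on both strands for CGCNTGCGC (NRF1), CCGGAAGT (ETS family, including NRF-2) and AAGATGGCG (YY1). The NRF1 and YY1 letters were shortened after matches to longer forms had been seen, and the longer forms stood in fewer windows, among the members and among all genes. The NRF1 letters stood in 5 of the 23 windows (21.7%), against 6.25% of 32851 windows of the same length, those of Atp5c1, Atp5o, Cycs, Sdha and Uqcrc1. The ETS letters stood in 1 window (Ndufs3), against 3.89% of all windows, and the YY1 letters in 2 (Ndufa9 and Atp5j), against 1.40%. A match is a description of letters, not a site. The 5 windows shown are those with several NRF1 matches (Sdha and Uqcrc1), the ETS match of Ndufs3, whose letters lie on the opposite strand, the YY1 match of Ndufa9, and that of Cox7a2, the member with the largest difference in the BC model, which holds none of the 3. Each is written 5′ to 3′ on the strand of its gene, with matches in capitals.
Sdha (chr13:74350191-74350490, minus strand): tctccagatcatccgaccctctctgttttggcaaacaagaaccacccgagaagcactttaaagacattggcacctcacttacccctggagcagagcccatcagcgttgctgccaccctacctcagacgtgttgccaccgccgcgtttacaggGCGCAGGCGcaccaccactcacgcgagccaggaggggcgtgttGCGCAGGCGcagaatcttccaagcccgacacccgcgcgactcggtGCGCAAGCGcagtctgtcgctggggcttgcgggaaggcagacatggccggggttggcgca
Uqcrc1 (chr9:108936398-108936697, plus strand): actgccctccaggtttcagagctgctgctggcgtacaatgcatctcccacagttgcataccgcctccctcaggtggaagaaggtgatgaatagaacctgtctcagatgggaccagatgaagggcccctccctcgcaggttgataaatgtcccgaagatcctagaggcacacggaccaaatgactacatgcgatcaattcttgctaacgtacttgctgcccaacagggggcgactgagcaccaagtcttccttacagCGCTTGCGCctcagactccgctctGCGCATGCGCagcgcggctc
Ndufs3 (chr2:90904672-90904971, minus strand): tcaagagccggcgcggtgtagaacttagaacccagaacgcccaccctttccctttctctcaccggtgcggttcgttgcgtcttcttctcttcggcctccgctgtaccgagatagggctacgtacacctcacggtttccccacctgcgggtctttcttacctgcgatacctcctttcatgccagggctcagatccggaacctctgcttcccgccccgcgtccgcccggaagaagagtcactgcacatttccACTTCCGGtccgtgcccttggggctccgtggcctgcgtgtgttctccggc
Ndufa9 (chr6:126849095-126849394, minus strand): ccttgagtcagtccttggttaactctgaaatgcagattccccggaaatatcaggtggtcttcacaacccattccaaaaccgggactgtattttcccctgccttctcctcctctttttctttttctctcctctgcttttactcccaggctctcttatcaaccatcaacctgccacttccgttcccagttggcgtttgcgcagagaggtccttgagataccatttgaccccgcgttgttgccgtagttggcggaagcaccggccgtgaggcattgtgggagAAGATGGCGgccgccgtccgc
Cox7a2 (chr9:79759804-79760103, minus strand): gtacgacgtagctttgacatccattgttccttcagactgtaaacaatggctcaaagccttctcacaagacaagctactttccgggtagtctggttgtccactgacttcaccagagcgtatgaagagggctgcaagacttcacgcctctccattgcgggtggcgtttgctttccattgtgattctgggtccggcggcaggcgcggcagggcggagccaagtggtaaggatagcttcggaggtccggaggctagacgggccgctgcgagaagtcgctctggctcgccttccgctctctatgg

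The first comparison asked how subunit expression differed between lung metastases and primary tumours of the BC model. No gene of the 12832 tested was called by limma at an adjusted p under 0.05 (0%), so none of the 31 members was either. At an unadjusted p under 0.05, 4 members were higher and 0 lower, where 0.881% of all genes were higher and 1.18% lower. The mean was higher in metastases for 26 of the 31 and lower for 5, with a median log2 difference of 0.96 against -0.29 over all genes tested. For 19 members both metastases lay above both primary tumours, where 15.8% of all genes did, and for 2 members both lay below, where 27% of all genes did. Metastasis 4 exceeded the primary mean for 27 members (median 0.42) and metastasis 6 for 26 (median 1.58). Against single primary tumours, the median of metastasis 4 was 0.05 over primary 1 (19 higher, 12 lower). Over primary 5 it was 0.73 (29 higher, 2 lower). For metastasis 6 the medians were 1.26 (25 higher, 6 lower) and 1.72 (26 higher, 5 lower).

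In complex IV, cytochrome c oxidase, all 6 members had both metastases above both primary tumours, with a median log2 difference of 1.21. Cox7a2, a small accessory subunit in its widely expressed isoform, read 194 and 163 RPKM in BC primary 1 and 5 and 413 and 1115 RPKM in lung metastasis 4 and 6. Both metastases thus lay above both primary tumours, metastasis 6 the further, and the difference was 1.93 ± 0.62 (SE) in log2, 3.80-fold (limma adjusted p = 0.974). Cox5b, a zinc-binding subunit, read 183 and 188 RPKM in the primary tumours and 345 and 1015 RPKM in the metastases, with a log2 difference of 1.67 ± 0.70. Cox5a, Cox6c, Cox7b and Cox4i1 had log2 differences of 1.17, 1.13, 1.25 and 0.69 in the same direction. For Cox4i1 the lower metastasis (817 RPKM) barely passed the higher primary tumour (812 RPKM).

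Complex I was split. Of its 11 listed members, 9 had the higher mean in metastases, with a median log2 difference of 1.03 over the 11. For 7 both metastases lay above both primary tumours, where 15.8% of all genes did. Ndufa2, a small accessory subunit, read 171 and 151 RPKM in the primary tumours and 342 and 1003 RPKM in the metastases, with a log2 difference of 1.86 ± 0.63. Ndufa1, another small accessory subunit encoded on the X chromosome, read 100.5 and 102 RPKM in the primary tumours and 201 and 414 RPKM in the metastases, 2.83-fold (log2 SE 0.58). Ndufa4 was listed under complex I by its symbol but is now placed with complex IV. It read 380 and 424 RPKM in the primary tumours and 528 and 1755 RPKM in the metastases. Ndufb5 and Ndufb8, accessory subunits of the membrane arm, read 63.1 and 37.8 RPKM and 52.1 and 32.9 RPKM in the primary tumours and 67.5 and 136 RPKM and 55.7 and 166 RPKM in the metastases, with no overlap for either. In the PDAC libraries Ndufb5 ranged from 39.5 to 92.1 RPKM and Ndufb8 from 74.1 to 205 RPKM, each lowest in liver metastasis 5 and highest in liver metastasis 1. The exceptions were core subunits of the electron-input arm. Ndufv1, which binds NADH and flavin, read 96.5 and 51.6 RPKM in the primary tumours and 72.6 and 16.3 RPKM in the metastases, so that metastasis 4 lay within the primary range and metastasis 6 below it. Ndufs1 was lower in both metastases (15.4 and 16.5 RPKM) than in both primary tumours (21.8 and 23.7 RPKM), a log2 difference of -0.48 ± 1.31. Ndufs3, a core subunit of the peripheral arm, went with the majority, at 43.9 and 28.6 RPKM in the primary tumours and 45.6 and 118 RPKM in the metastases.

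The 2 listed members of complex II, which has further subunits, went in opposite directions. Sdha, the flavoprotein that oxidises succinate, read 79.7 and 59.9 RPKM in BC primary 1 and 5 and 53.5 and 8.26 RPKM in lung metastasis 4 and 6. Both metastases were below both primary tumours, metastasis 6 by far, and the log2 difference was -1.64 ± 1.60. Sdhb, the iron-sulfur subunit that takes the electrons from Sdha, read 162 and 81.3 RPKM in the primary tumours and 139 and 347 RPKM in the metastases, which overlap. Within metastasis 6 Sdhb stood far above Sdha, while in the other BC libraries they were closer. Neither difference passed the test.

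All 5 complex III members had the higher mean in metastases, with log2 differences from 0.44 (Cyc1, the cytochrome c1 heme protein) to 1.69 (Uqcrq, a small accessory subunit). Uqcrq read 60.4 and 40.2 RPKM in the primary tumours and 88.6 and 292 RPKM in the metastases, with no overlap, as did Uqcrb at 94.3 and 99.2 against 141 and 246 RPKM. The core proteins Uqcrc1 and Uqcrc2 and Cyc1 overlapped between the groups. Complex V members went in both directions. The catalytic head subunits Atp5a1 (alpha) and Atp5b (beta) had lower means in metastases, though the groups overlapped for both. Atp5a1 read 342 and 189 RPKM in the primary tumours and 244 and 98.6 RPKM in the metastases, with a log2 difference of -0.71 ± 0.63, and Atp5b read 590 and 383 against 410 and 299 RPKM. The stalk and membrane subunits Atp5g1 (27.7 and 14.8 against 28.5 and 96.8 RPKM), Atp5j and Atp5o went the other way with no overlap. Their log2 differences were 1.33, 1.06 and 1.04. Atp5c1, the central stalk gamma subunit, overlapped. Cycs read 20.04 and 11.0 RPKM in the primary tumours and 20.8 and 35.9 RPKM in the metastases.

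**Figure D2:**
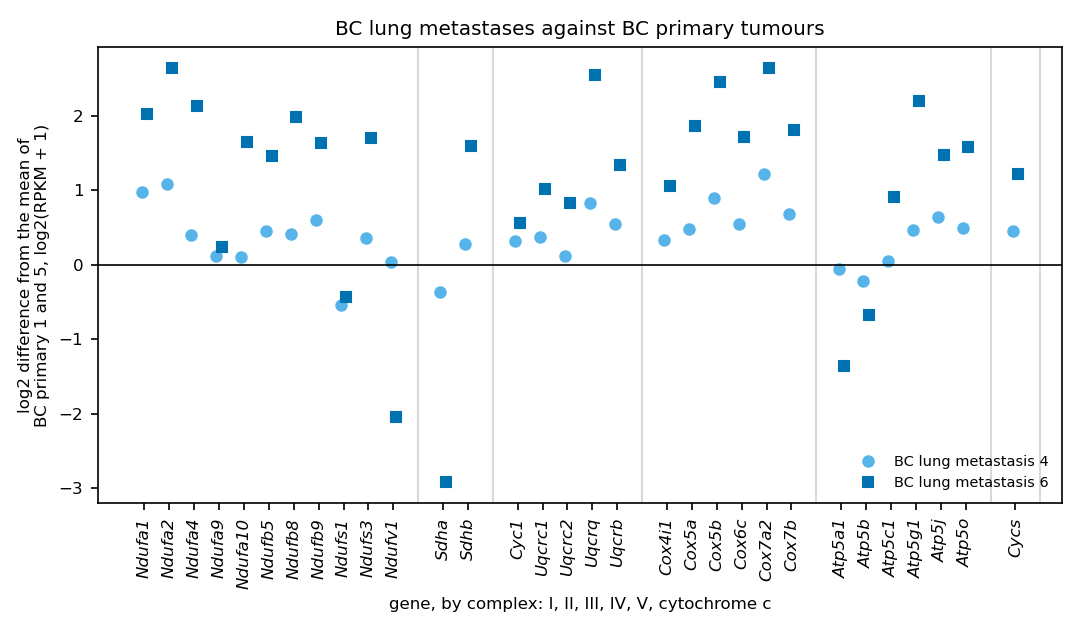
Log2 difference of BC lung metastasis 4 (circles) and 6 (squares) from the mean of the 2 BC primary tumours, on log2(RPKM + 1), for each gene by complex. Complex IV lies above 0 in both metastases, while Ndufs1, Sdha, Atp5a1 and Atp5b lie below 0 in both, and metastasis 6 is the farther from 0 for most genes.

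The members' median difference in the BC model depended on library and scaling. It was 0.42 without metastasis 6 and 1.58 without metastasis 4. Under quantile scaling the members' median was 0.51 (21 higher, 10 lower) beside 0.07 for all genes. With a common sum that leaves out haemoglobin it was 0.48 (22 higher, 9 lower) beside -0.65 for all genes. BC lung metastasis 6, with few detected genes, also had S100a8 and other neutrophil markers that the primary tumours nearly lacked, as did metastasis 4. Their part in the result was not tested. In bulk RNA, fewer cells of a type and less RNA per cell cannot be told apart.

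Shorter transcripts carried the larger differences. Transcript lengths were the longest principal transcript of the GENCODE M21 annotation, from 419 bases (Ndufa1) to 4715 (Atp5g1). All 15 members shorter than 1079 bases had the higher value in both metastases, with medians of 0.55 in metastasis 4 and 1.81 in metastasis 6. Of the 16 longer members, 12 did so in metastasis 4 and 11 in metastasis 6, with medians of 0.12 and 0.86. Across the 31 genes Spearman's rho between length and difference was -0.67 for metastasis 4 and -0.57 for metastasis 6, and across 11396 genes with a length it was -0.50 and -0.34. The genes of 1 library share its preparation and are not independent replicates. The 2 BC primary tumours also differed from each other by length, with rho of 0.49 over all genes for primary 5 against primary 1 and -0.42 over the members. The lower members named above (Sdha, Ndufv1, Ndufs1, Atp5a1 and Atp5b) all had transcripts of 1661 bases or more. The part of length in the result was not tested.

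**Figure D3:**
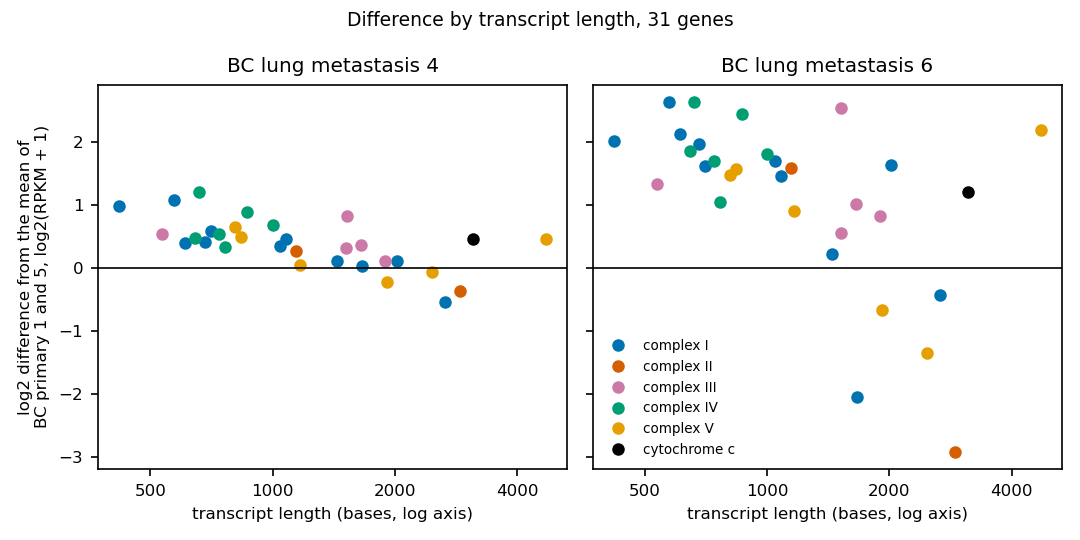
Log2 difference of each BC lung metastasis from the mean of the BC primary tumours (vertical, log2(RPKM + 1)) against transcript length in bases (horizontal, log axis), 1 point per gene, coloured by complex. All points below 1079 bases lie above 0 in both panels, and the points below 0 lie at 1661 bases or more.

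Other genes of the system came from lists fixed by symbol. Of 47 further nuclear subunits of complexes I to V, 46 had the higher mean in BC metastases. For 44 both metastases lay above both primary tumours, where 15.8% of all genes did. Their median log2 difference was 1.18, with the highest value in Uqcr11 (1.83), a small complex III subunit. The pattern did not extend to every mitochondrial list. Of 30 assembly factors tested, 16 were higher and 14 lower (median 0.19), from 2410091C18Rik at -1.86 to 2310016M24Rik at 1.79. Of 13 TCA cycle genes, 4 were higher and 9 lower (median -0.55), from Ogdh, a subunit of the oxoglutarate dehydrogenase complex, at -2.21 to Idh3g, a subunit of isocitrate dehydrogenase, at 1.13. Of 11 regulators of mitochondrial biogenesis, 2 were higher and 9 lower (median -1.11), from Polrmt, the mitochondrial RNA polymerase, at -2.03 to Tfb2m, a mitochondrial transcription factor, at 0.56. All 10 carrier and import genes had higher means, from Slc25a5 (0.15) to Tomm22 (0.87), and 1 of them was higher without overlap, near the share of all genes. Of the 4 matched tissue isoforms of complex IV, 1 was higher and 3 lower, from Cox4i2 (-0.46) to Cox6a2 (0.06). None of these genes was called.

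The second comparison set PDAC liver metastases against PDAC primary tumours. Of 12832 genes 1 was called (0.00779%), Apoa2, an apolipoprotein made by hepatocytes, and none of the 31 members. At an unadjusted p under 0.05 no member was higher or lower, where 4.89% of all genes were higher and 1.5% lower. The members divided evenly, 16 with the higher and 15 with the lower mean in metastases, with a median log2 difference of 0.12 beside 0.08 over all genes, and the sign of that median turned to -0.19 under quantile scaling and -0.34 with a common sum without haemoglobin. Cox7a2, Ndufb9 and Ndufa1 were higher in both metastases than in both primary tumours, where 15.4% of all genes were. Ndufs3, Atp5c1, Uqcrc2 and Atp5a1 were lower in both, where 10.2% of all genes were. Ndufa1 read 274 and 301 RPKM in PDAC primary 1 and 5 and 606 and 374 RPKM in liver metastasis 1 and 5, a log2 difference of 0.73 ± 0.58 (limma adjusted p = 0.890). Ndufs3 read 44.8 and 119.5 RPKM in the primary tumours and 36.8 and 25.0 RPKM in the metastases, with a difference of -1.25 ± 0.80. Atp5c1 read 217 and 332 RPKM in the primary tumours and 214 and 119.5 RPKM in the metastases, where metastasis 1 was just under primary 1.

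The 2 liver metastases lay apart. Liver metastasis 1 was above the primary mean for 25 of 31 members (median 0.70), and liver metastasis 5 was below it for 26 (median -0.49), while over all genes the medians were -0.02 and 0.29. Metastasis 1 exceeded metastasis 5 for 30 of 31 members, by a median of 2.02-fold, whereas 38.9% of all genes were higher in metastasis 1. The exception was Sdha, at 39.8 and 41.2 RPKM. Of the 47 further subunits 45 were higher in metastasis 1. Ndufa10, an accessory complex I subunit, read 146 RPKM in metastasis 1 and 32.5 RPKM in metastasis 5, while Atp5a1 read 193 and 179 RPKM. The summed tumour epithelium markers also differed (6655 in metastasis 1, 239 in metastasis 5), as did the neutrophil markers (8727 and 190764) and haemoglobin. Metastasis 1 carries SIRT6F/F (25.67 weeks) and metastasis 5 does not (28.95 weeks), so genotype, age and number cannot be told apart. The part of these differences in the result was not tested. Each complex followed the same order: in metastasis 1 the medians were 0.50, 1.29, 0.77, 0.81 and 0.05 for complexes I to V, and in metastasis 5 they were -0.76, 0.68, -0.43, -0.29 and -0.89.

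**Figure D4:**
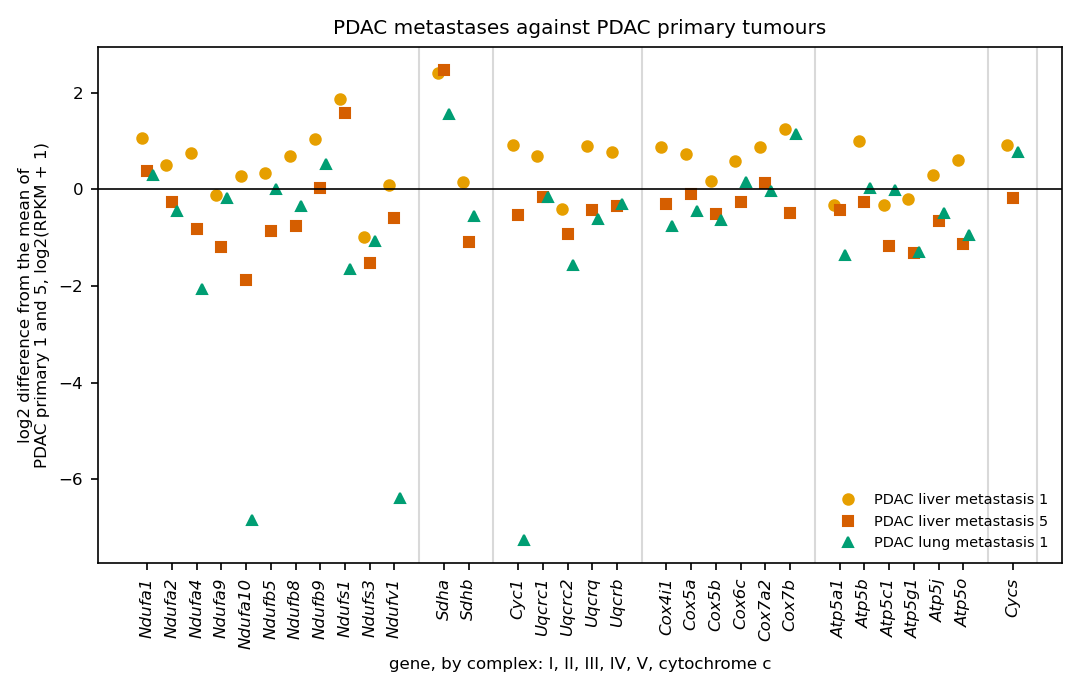
Log2 difference of PDAC liver metastasis 1 (circles), liver metastasis 5 (squares) and lung metastasis 1 (triangles) from the mean of the 2 PDAC primary tumours, on log2(RPKM + 1), for each gene by complex. Liver metastasis 1 lies above liver metastasis 5 for every gene but Sdha, and Ndufa10, Ndufv1 and Cyc1 of the lung metastasis lie below -6.

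Of the members Sdha had the largest difference, which rested on 1 library. Among the PDAC primary libraries, Sdha read 56.3 RPKM in number 1 and 0.0247 RPKM in number 5, beside 39.8 and 41.2 RPKM in the liver metastases, so the metastases lay between the primary tumours. The log2 difference was 2.44 ± 1.60. Without PDAC primary 1 it was 5.34 and was called (limma adjusted p = 0.0175, 1 of 1032 genes called), and without primary 5 the direction turned to a difference of -0.47. Ndufs1 followed the same pattern, at 14.5 and 0.0508 RPKM in the primary tumours and 13.7 and 11.1 RPKM in the liver metastases. The other lists gave no call beyond Apoa2. Of the 47 further subunits 21 were higher and 26 lower (median -0.08), with the highest value in Ndufb7, an accessory complex I subunit (1.39). Assembly factors ranged from Nubpl (-1.77) to Sdhaf1 (1.46), TCA cycle genes from Suclg2 (-1.48) to Sucla2 (1.85), regulators from Ppargc1b (-1.23) to Esrra (1.89), carriers and import genes from Slc25a4 (-0.99995) to Tomm22 (0.81), and tissue isoforms from Cox4i2 (-0.48) to Cox6b2 (2.75).

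The third comparison set the single PDAC lung metastasis against the PDAC primary tumours. With 1 library on that side, its variation is assumed to be like that of the other groups. Of 12832 genes 75 were called (0.584%), 22 higher and 53 lower. Among the 31 members 3 were called lower, where 0.413% of all genes were, and 0 higher, where 0.171% were. At an unadjusted p under 0.05, 4 members were lower (7.97% of all genes) and 0 higher (5.78% of all genes). Cyc1 read 265 and 110.5 RPKM in PDAC primary 1 and 5 and 0.131 RPKM in the lung metastasis, a log2 difference of -7.25 ± 0.92 (limma adjusted p = 0.0348). Ndufa10 read 84.3 and 173 RPKM in the primary tumours and 0.0689 RPKM in the metastasis, a difference of -6.83 ± 1.10 (limma adjusted p = 0.0371). Ndufv1 read 91.6 and 80.2 RPKM in the primary tumours and 0.0310 RPKM in the metastasis, a difference of -6.39 ± 1.06 (limma adjusted p = 0.0371). Each value in the metastasis corresponds to very few reads, estimated at 3.61, 2.93 and 1.04. The pseudocount of 1 RPKM makes the fitted difference smaller than the ratio of the RPKM values. Of all genes with at least 10 RPKM in 6 other libraries, 12.8% were under 1 RPKM in this metastasis, beside 12.9% of the members.

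These 3 calls depended on the fit, since no member was called with PDAC animals as a block (adjusted p from 0.106 to 0.112), with plain empirical Bayes moderation (from 0.0637 to 0.0697), with only the PDAC groups compared (from 0.544 to 0.607) or without any 1 of the 4 BC libraries (from 0.101 to 0.108). With no filter on low values, 1 of the 3 (Cyc1) was called. Without PDAC primary 1, primary 5, liver metastasis 1 or liver metastasis 5 these calls were kept, but each such fit left 1 library in a further PDAC group. Without primary 1 the log2 difference of Sdha was 4.47, taken against primary 5 alone (0.0247 RPKM). The median over all 31 members in the lung metastasis was -0.45 beside -0.50 over all genes, with 8 members higher and 23 lower. Ndufa4 read 132 RPKM, its lowest value in the 9 libraries, against 432 and 711 in the primary tumours, a difference of -2.07 ± 0.88 (limma adjusted p = 0.334). Cox7b, a small complex IV subunit, read 212 RPKM against 106 and 86.1. Other members of these complexes varied. Uqcrc1 stood at 231 RPKM and Uqcrb at 102 RPKM beside Cyc1, while Uqcrc2 was at 30.4 RPKM, its lowest in the 9 libraries. Ndufb9 stood at 532 RPKM and Ndufa9 at 128 RPKM beside Ndufa10 and Ndufv1, while Ndufs1 was at 0.290 RPKM. The lung metastasis also had the only called gene of the other subunit lists, Cox4i2. This call was lost with the block by animal, with plain moderation and with only the PDAC groups compared. It was also lost without BC primary 1, BC primary 5 or BC lung metastasis 4. Cox4i2, an isoform of complex IV subunit 4 known from lung, was listed at 1.21 and 0 RPKM in the primary tumours and 33.0 RPKM in the metastasis, a log2 difference of 4.51 ± 0.82 (limma adjusted p = 0.0449). Cox6a2, the heart and muscle isoform of subunit 6a, was at 40.4 RPKM in this library but was not called (limma adjusted p = 0.0773). This library held lung epithelium markers at 35869 and tumour epithelium markers at 132 in sum. Their part in these values was not tested.

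Other highly expressed genes also had values near 0 in these libraries. Among the members, 6 values were under 1 RPKM: Cyc1, Ndufa10, Ndufv1 and Ndufs1 (0.290 RPKM) in PDAC lung metastasis 1, and Ndufs1 and Sdha in PDAC primary 5. The reads behind Ndufs1 were estimated at 30.0 in the lung metastasis and 12.9 in PDAC primary 5, and those behind Sdha at 3.19. Each of these 5 genes had at least 8.26 RPKM in every library where it was not under 1. To give a measure for all genes, 2368 genes had at least 10 RPKM in the other 6 libraries, that is outside PDAC lung metastasis 1, PDAC primary 5 and BC lung metastasis 6, which had the fewest genes detected. All 31 members were among them. Of these genes 302 (12.8%) were under 1 RPKM in the PDAC lung metastasis, beside 4 of 31 members (12.9%), 337 (14.2%) in PDAC primary 5, beside 2 members (6.45%), and 138 (5.83%) in BC lung metastasis 6, beside 0 members. The 5 genes have transcripts of 1520 to 2900 bases.

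**Figure D5:**
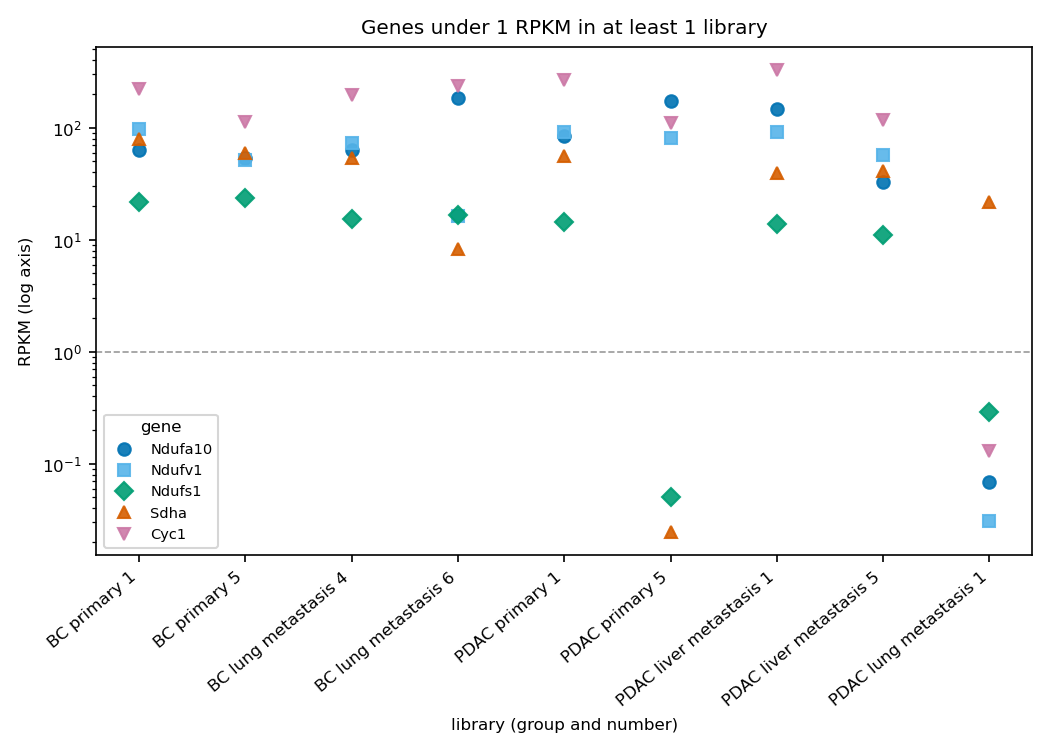
RPKM (log axis) of the 5 genes with a value under 1 RPKM (dashed line) in at least 1 of the 9 libraries. Ndufs1 and Sdha fall below the line in PDAC primary 5, and Ndufa10, Ndufv1, Ndufs1 and Cyc1 in PDAC lung metastasis 1.

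Primary tumours of the models were also compared. Of 12832 genes 4 were called (0.0312%) and none of the 31 members. At an unadjusted p under 0.05, 2 members were higher (3.76% of all genes) and 0 lower (9.43% of all genes). Members had a higher mean in PDAC than in BC primary tumours in 24 cases and a lower one in 7, with a median log2 difference of 0.61 beside -0.31 over all genes. Both PDAC primary tumours lay above both BC ones for 20 members, where 15.7% of all genes did, and below for 5, where 31.5% did. The 5 were Sdha, Ndufs1, Ndufb9, Atp5b and Cox6c. Ndufa1 (274 and 301 RPKM in PDAC against 100.5 and 102 in BC), Ndufa2 (403 and 586 against 171 and 151) and Uqcrq (101 and 258 against 60.4 and 40.2) were among the largest, with fold differences of 2.82, 3.01 and 3.23. Ndufb9 went the other way at 374 and 364 RPKM in PDAC against 839 and 694 in BC, a difference of -1.047 ± 0.56 (limma adjusted p = 0.455). With quantile scaling the split was 17 to 14 and with a common sum without haemoglobin 18 to 13. Without PDAC primary 1, the BC primary tumours were compared with PDAC primary 5 alone, and the log2 differences of Sdha and Ndufs1 were -6.10 and -4.50.

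Pooled over models, metastases against primary tumours gave 1 called gene (0.00779%) and none of the 31 members. At an unadjusted p under 0.05, 3 members were higher (2.19% of all genes) and 0 lower (2.7% of all genes). The mean was higher in metastases for 22 members and lower for 9, with a median log2 difference of 0.33 beside -0.16 over all genes, but the median was 0.00 with quantile scaling and turned to -0.09 with a common sum without haemoglobin. For no member did all 5 metastases lie above or below all 4 primary tumours, which 0.366% and 0.538% of all genes did. All 6 complex IV members had the higher mean, from 0.28 (Cox4i1) to 1.053 (Cox7a2). The metastasis effects of the models, PDAC liver less BC lung, differed by a median of -0.96 over the members, 26 of them negative, beside 0.53 over all genes. None of 12832 genes was called in this test of the difference (0%), with 3.34% higher and 0.787% lower at an unadjusted p under 0.05, and no member passed that either. The member with the largest difference was Sdha (4.08 ± 2.27, limma adjusted p = 0.874).

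Libraries of 1 group also differed from each other. BC primary 1 exceeded primary 5 for 25 of 31 members (median 1.51-fold), BC lung metastasis 6 exceeded metastasis 4 for 27 (2.05-fold), and PDAC primary 5 exceeded primary 1 for 22 (1.29-fold). Over all genes tested the shares higher in the first-named library were 44.7%, 31.9% and 34.1%. Ranked by level within each library, Cox4i1 stood between the first and the third place and Ndufb9 between the first and the fifth in all 9 libraries. Sdha ranged from place 20 in both BC primary tumours to place 31 in BC lung metastasis 6 and PDAC primary 5.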

How the data were processed

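RNA was sequenced from 9 libraries of sorted cells, prepared per the labels' protocols from 100 ng or more of total RNA by SMART-seq v4 and Nextera XT, a chemistry that does not mark strand. The mm9 build is given per the submitters' processing notes, while the aligner, counter and annotation are not given in the sources used here. Values in the deposited table are named CPM but were treated as RPKM. Multiplied by gene length, 62.8% to 74.4% of the low values in a library fell within 0.02 of whole multiples of 1 step. For the values alone the share was 5.60% to 6.68%, from a coarser search limited to the lowest values, so these shares are not fully alike. The step found with gene length gave the estimated reads on genes, 21.3 to 127.9 M. These are approximate because the authors' gene lengths are not used here. The estimate exceeded the library total that the same step implied in every library but BC primary 5 (127.9 against 131.0 M). It was 21.3 against 12.8 M in PDAC lung metastasis 1 and 65.2 against 36.4 M in PDAC liver metastasis 5.

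The 12832 genes that reached 1 RPKM in 2 or more libraries, all 31 members among them, were tested on log2(RPKM + 1) with limma 3.58.1 in R 4.3.3, with 1 mean per group, trend and robust empirical Bayes, two-sided, and Benjamini-Hochberg adjustment over all genes, called at an adjusted p under 0.05. This left 4 residual degrees of freedom. The comparison pooled over models had the model as a term. Fold changes are on the log2(RPKM + 1) scale, which understates those of low genes. The fit was tested on simulated data with independent normal noise, its spread per gene capped at the median. That test did not cover values that drop to near 0, genes of larger spread or libraries from 1 animal. The members and lists were chosen with earlier results of these data known. All members were described. Of other lists, called genes and those with the highest and lowest difference in the BC lung and PDAC liver comparisons were named, and Cox6a2, markers and Sirt6 were added where a result touched them. An item of these lists is not reported here. PDAC libraries with the same number come from 1 animal, since the labels call the metastases matched and give them the same age and genotype. Residuals of PDAC primary 1 and liver metastasis 1 correlated at -0.17 over 12832 genes. Alternatives were another pseudocount (0.1), other filters, 3 scalings, plain moderation, only the groups compared, the replicate block and leaving libraries out. Of the 31 members, 21 had a promoter in the RefSeq table. The motif letters searched in the promoters were not a planned choice: the NRF1 and YY1 patterns were shortened after longer forms had been searched, which raised the number of matching windows.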

Additional observations from a re-analysis of the deposited data

Results flagged for a closer look

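Values were flagged where 1 library lay far from the rest among the 4 primary tumours or the 5 metastases, by the gap to the nearest value over the whole range. Of 62 such groups (31 genes, primary tumours and metastases) 5 were flagged, and chance flags about 1 in 20. Each group pools both tumour models. Ndufs1 was lowest in PDAC lung metastasis 1, at 0.290 RPKM among the metastases, and lowest in PDAC primary 5, at 0.0508 RPKM among the primary tumours. Sdha was lowest in PDAC primary 5, at 0.0247 RPKM. Cyc1 was lowest in PDAC lung metastasis 1, at 0.131 RPKM. Cox5a was lowest in BC primary 5, at 151 RPKM, where the other 3 primary tumours lay between 270 and 274 RPKM.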

How the results depend on the processing

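Of the values for single members under the alternatives, 3111 kept their direction and side of the threshold, 178 changed direction without being called either way, 4 gained a call and 23 lost one, and none reversed while called. The 23 lost calls are all of Cyc1, Ndufa10 and Ndufv1 in the PDAC lung metastasis. The cause of these changes was not tested. In the BC comparison 0 genes were called except 73 (34 higher, 39 lower) with only its groups compared, and leaving out 1 library moved the members' median between 0.42 and 1.58. In the PDAC liver comparison 0 genes were called with pseudocount 0.1, no filter, a filter of at least 1 RPKM in 5 libraries, quantile scaling, a common sum without haemoglobin, the replicate block or without the 3 libraries with the fewest genes, and 2 with plain moderation. Leaving out 1 library gave 0 to 1032 genes, 0 to 1 members and medians from -0.49 (without liver metastasis 1) to 0.70 (without liver metastasis 5). In the PDAC lung comparison 270 genes were called with pseudocount 0.1 (7 higher, 263 lower), 251 with no filter (205 higher, 46 lower), 161 with quantile scaling (121 higher, 40 lower), and 0 with only its groups, plain moderation or the replicate block. There 1 member was called with no filter and 0 under the latter 3. Leaving out 1 library gave 0 to 1547 genes, 0 to 4 members and medians from -0.72 to -0.30. Pooled over models, 6 genes were called with the filter in 5 libraries or quantile scaling, 2 with a common median, and 0 with pseudocount 0.1, no filter, a common sum without haemoglobin, plain moderation, the replicate block or without the 3 libraries. Leaving out 1 library gave 0 to 10 genes and medians from 0.08 to 0.56. Between primary tumours 13 genes were called with quantile scaling, 72 without the 3 libraries, 1 with plain moderation and 0 with no filter or only those groups. Leaving out 1 library gave 1 to 803 genes, 0 to 2 members and medians from 0.32 to 0.92. For the difference between models, leaving out 1 library gave 0 to 30 genes and medians from -1.54 to -0.42, and the median was -0.38 without the 3 libraries. The replicate block, which pairs PDAC libraries by animal, changed no other member call. The fit to the groups compared was not run for the pooled comparison and the difference, and the BC groups share no number. With 1 or 2 libraries a group and an estimated 21.3 M reads on genes in the shallowest library, only large differences could pass. Of the 6 member values under 1 RPKM, 4 rest on an estimated 1.04 to 3.61 reads.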
